A study of Mus musculus with 9 samples.

Results

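The integrin and laminin genes of mouse were examined for non-methylated islands (NMIs) at their transcription start sites (TSSs) in C127 cells. Members were the protein-coding genes of GENCODE M21 whose symbols begin with Itga, Itgb, Lama, Lamb or Lamc, with the integrin-binding proteins left out. This gave 39 of 21938 protein-coding genes: 27 integrin subunits (18 alpha and 9 beta chains), 11 laminin chains and Itgbl1, an integrin-like gene that forms no known integrin and is given apart. The rule for membership uses gene symbols and no measured value.

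The samples came from untreated C127 cells, an established mouse line labelled as mammary epithelial and grown in serum-containing medium, with no genotype or treatment to compare. Besides 1 BioCAP library and its input, the study made 3 ATAC libraries of accessible chromatin with 1 input and 3 libraries of nascent RNA labelled with 4-thiouridine, none of which were analysed here. BioCAP draws fragments that carry CpGs without methylation onto a resin bearing the CXXC domain of KDM2B, and the islands called from the library are listed by chromosome, start and end alone (13491 NMIs, median width 990.0 bp, mm10). There was therefore no replicate, no read depth and no height for any NMI, so that the shares below are descriptions of 1 library with exact (Clopper-Pearson) 95% intervals that cover counting error only, and the lack of a listed NMI at a gene is no measurement of its methylation.

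Integrins are receptors of 1 alpha and 1 beta chain that hold cells to the extracellular matrix or to other cells. Laminins are trimers of an alpha, a beta and a gamma chain that form the sheet of the basement membrane, and they are themselves ligands of several integrins. The beta2 and beta7 integrins are known from leukocytes, the pair of Itga6 and Itgb4 from hemidesmosomes of epithelia, and the beta1 and alphaV chains from nearly all adherent cells. CpG-rich promoters of mammalian genes are usually free of DNA methylation, whereas promoters poor in CpG are usually methylated outside the cells that use them.

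Promoters at both ends of this range are shown to make the difference in CpG content visible before the NMIs are described. They are the 250 bases before the start of transcription in RefSeq (GRCm38.p6, the same coordinates as mm10), read 5′ to 3′ on the strand of the gene, with every CpG in capitals and all other bases in lower case. The table held promoters of 25 of the 39 members, and those of Itga6, Itga7, Itgad, Itgae, Itgal, Itgb2, Itgb3, Itgb4, Lama1, Lama3, Lama4, Lamc1 and Lamc3 were among those it did not hold. The 4 leukocyte integrin promoters in the table come first. None of these genes had an NMI at a TSS.
Itgb2l, chr16:96443615-96443864, minus strand: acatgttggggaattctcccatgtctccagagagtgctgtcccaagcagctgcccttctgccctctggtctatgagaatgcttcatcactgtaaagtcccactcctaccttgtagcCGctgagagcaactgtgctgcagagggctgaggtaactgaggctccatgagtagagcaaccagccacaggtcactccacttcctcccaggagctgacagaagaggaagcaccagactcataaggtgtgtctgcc
Itgb7, chr15:102231936-102232185, minus strand: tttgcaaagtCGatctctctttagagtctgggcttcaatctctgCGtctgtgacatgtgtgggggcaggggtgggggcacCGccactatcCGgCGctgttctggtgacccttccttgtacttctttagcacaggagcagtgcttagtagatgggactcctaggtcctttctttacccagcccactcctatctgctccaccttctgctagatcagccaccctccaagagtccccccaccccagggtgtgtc
Itgam, chr7:128062390-128062639, plus strand: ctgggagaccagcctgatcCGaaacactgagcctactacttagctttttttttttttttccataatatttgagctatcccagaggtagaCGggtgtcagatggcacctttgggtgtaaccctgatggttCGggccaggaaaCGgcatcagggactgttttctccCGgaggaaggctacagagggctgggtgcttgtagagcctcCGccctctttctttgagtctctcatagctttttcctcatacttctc
Itgax, chr7:128129300-128129549, plus strand: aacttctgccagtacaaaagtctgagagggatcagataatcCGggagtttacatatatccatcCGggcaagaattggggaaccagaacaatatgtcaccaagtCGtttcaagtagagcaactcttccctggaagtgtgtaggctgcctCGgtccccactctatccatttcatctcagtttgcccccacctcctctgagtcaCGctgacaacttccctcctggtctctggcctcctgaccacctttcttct
They held 1 CpG in Itgb2l, 5 in Itgb7, 6 in Itgam and 5 in Itgax.

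The 4 promoters below belong to the members in the table with the widest NMIs, which in each gene covered the whole of the printed stretch.
Itga5, chr15:103366792-103367041, minus strand: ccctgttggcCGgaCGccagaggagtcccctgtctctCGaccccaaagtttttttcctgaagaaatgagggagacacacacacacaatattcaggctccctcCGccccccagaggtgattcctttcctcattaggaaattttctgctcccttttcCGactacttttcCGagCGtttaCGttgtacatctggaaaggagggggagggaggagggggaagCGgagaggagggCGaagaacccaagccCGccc
Itga3, chr11:95076715-95076964, minus strand: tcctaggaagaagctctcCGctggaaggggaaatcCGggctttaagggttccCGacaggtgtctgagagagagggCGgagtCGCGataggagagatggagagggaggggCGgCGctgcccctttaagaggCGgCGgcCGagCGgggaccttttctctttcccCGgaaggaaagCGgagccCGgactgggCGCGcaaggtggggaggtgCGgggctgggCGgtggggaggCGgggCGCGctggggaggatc
Itgb5, chr16:33829415-33829664, plus strand: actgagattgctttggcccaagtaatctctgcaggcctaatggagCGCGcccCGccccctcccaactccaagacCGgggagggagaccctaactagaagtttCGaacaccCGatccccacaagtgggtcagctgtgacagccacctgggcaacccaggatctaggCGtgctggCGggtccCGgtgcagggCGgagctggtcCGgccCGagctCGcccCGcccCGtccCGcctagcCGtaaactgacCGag
Itgav, chr2:83724147-83724396, plus strand: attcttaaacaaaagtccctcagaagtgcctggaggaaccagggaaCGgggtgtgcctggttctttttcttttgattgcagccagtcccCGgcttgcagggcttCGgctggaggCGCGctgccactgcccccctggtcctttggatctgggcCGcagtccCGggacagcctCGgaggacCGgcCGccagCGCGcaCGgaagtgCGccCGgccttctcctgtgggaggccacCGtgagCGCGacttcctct
They held 11 CpGs in Itga5, 22 in Itga3, 18 in Itgb5 and 18 in Itgav. The last is Itga2b, the platelet alphaIIb chain, which is shown because its main transcript began outside any NMI while internal transcripts began inside.
Itga2b, chr11:102469884-102470133, minus strand: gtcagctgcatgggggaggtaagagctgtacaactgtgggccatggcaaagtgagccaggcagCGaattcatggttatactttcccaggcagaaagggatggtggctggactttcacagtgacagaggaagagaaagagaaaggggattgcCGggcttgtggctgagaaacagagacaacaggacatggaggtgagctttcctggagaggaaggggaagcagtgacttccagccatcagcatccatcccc
This stretch held 2 CpGs.

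Of the 39 members, 14 had an NMI at a TSS (35.9%, interval 21.2% to 52.8%), against 47.5% of all protein-coding genes. Integrin subunits had an NMI in 11 of 27 genes (40.7%, 22.4% to 61.2%) and laminin chains in 3 of 11 (27.3%, 6.02% to 61%). Both intervals hold the share of all genes. By group, all 4 widely used chains had an NMI, 2 of 5 epithelial chains did, and none of the 8 leukocyte chains did. With the TSS of the main transcript alone, 13 members had an NMI, against 44.1% of all genes. The plot of NMI widths gives the genes with their groups.

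**Figure D1:**
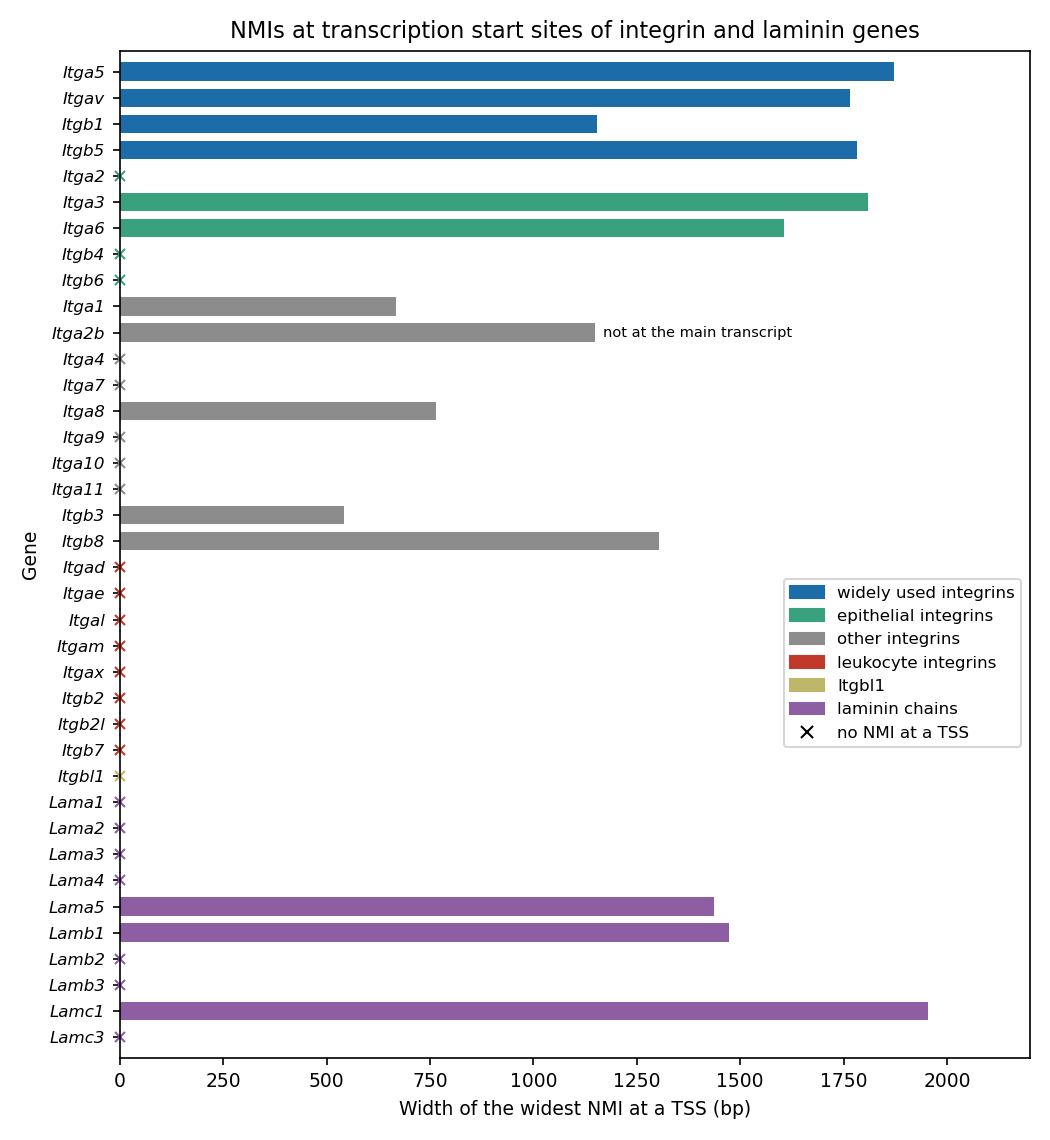
Width in bp of the widest NMI at a TSS of the integrin and laminin genes, coloured by group, with a cross where no TSS lay in an NMI. The 4 widely used integrins carry NMIs of 1155 to 1872 bp, the 8 leukocyte integrins carry none, and among the laminins Lama5, Lamb1 and Lamc1 carry wide NMIs (1437 to 1955 bp) and the other laminins shown carry none.

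The leukocyte integrins, which let white blood cells bind endothelium and other cells, had no NMI at any TSS (0 of 8, which the exact interval limits to at most 36.9%). They comprise Itgb2, the common beta2 chain, with its partners Itgal (of LFA-1), Itgam (of Mac-1), Itgax and Itgad, then Itgb7 with its partner Itgae, and Itgb2l, a beta2-like gene. The nearest NMI to any TSS lay 6829 bp away for Itgb7, 12798 bp for Itgb2, 21813 bp for Itgal, 33241 bp for Itgad, 41872 bp for Itgae, 89621 bp for Itgax, 93399 bp for Itgam and 236596 bp for Itgb2l. The median of 37556 bp was shorter than the 73055 bp over 11330 protein-coding genes without an NMI at a TSS.

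Itgam, Itgax and Itgad lie side by side on chromosome 7 (128062640 to 128223816). These 161177 bp held 0 NMIs. The stretch without any NMI extended over 267873 bp, up to the NMI shared by Armc5 and 9130023H24Rik, and held 7 protein-coding genes, the other 4 being Cox6a2, Gm49368, Pycard and Trim72. Itgal, on the same chromosome, stood apart from this cluster in a shorter NMI-free stretch of 70598 bp, with the NMI of Sephs2 nearest to it.

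Both NMIs found within leukocyte integrin genes lay away from their starts. In Itgae, which encodes the alphaE chain of intraepithelial lymphocytes, an NMI of 1434 bp covered exon 27 (57 bp) and parts of the introns beside it (chr11:73137244-73138677). It held the TSS of Haspin, a kinase gene on the opposite strand nested in Itgae. In Itgb7 an NMI of 725 bp with 45 CpGs covered exons 3 and 4 (chr15:102224355-102225079), and no annotated TSS of any gene lay in it.

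All of the widely used integrins had an NMI at the main TSS. Itga5, the alpha chain of the fibronectin receptor, had an NMI of 1872 bp (chr15:103365371-103367242), of which 464 bp lay in exon 1, 929 bp in intron 1 and 479 bp upstream of the gene. Itgb5, a beta chain that pairs with alphaV, had one of 1783 bp (chr16:33829122-33830904), and Itgav, the alphaV chain itself, one of 1765 bp (chr2:83723992-83725756). Itgb1, which pairs with more alpha chains than any other beta chain, had the narrowest of the group, at 1155 bp (chr8:128685299-128686453), but the densest, with 10.9 CpGs per 100 bp. The NMIs of Itga5, Itgav, Itgb1 and Itgb5 each ran from upstream of the gene through exon 1 into intron 1. Itgb5 also held an NMI of 1319 bp within intron 1 with no annotated TSS and 2.81 CpGs per 100 bp.

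The epithelial integrins were divided. Itga3, an alpha chain of laminin receptors, had an NMI of 1808 bp (chr11:95075547-95077354), and Itga6, the alpha chain of the hemidesmosome receptor, had one of 1605 bp (chr2:71786549-71788153). Itgb4, the hemidesmosome beta chain that pairs with Itga6, had none, and its nearest NMI, that of Galk1, lay 19223 bp from the closest of its TSSs. Itga2, an alpha chain of a collagen receptor, had none within 83114 bp of a TSS. Itgb6, a beta chain that pairs with alphaV in epithelia, had none within 15376 bp, although an NMI of 257 bp with 6 CpGs lay in its intron 1. Taking the epithelial and widely used chains together, 6 of 9 had an NMI (66.7%, 29.9% to 92.5%), an interval that overlaps that of the leukocyte chains.

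Among the 10 remaining integrins, 5 had an NMI at a TSS. Itgb8, a beta chain that pairs with alphaV, had one of 1304 bp (chr12:119237765-119239068). Itga8, an alpha chain needed in kidney development, had one of 764 bp, Itga1, a collagen-binding alpha chain, one of 668 bp, and Itgb3, the beta chain shared by the platelet and the alphaV receptors, one of 542 bp. With the narrower NMI at a TSS of Itga2b (734 bp), these were the narrowest at a TSS of any member. The NMI of Itga1 also held a TSS of Gm49395, a protein-coding gene on its strand, and was the only member NMI at a TSS shared with another gene. A further NMI of 1371 bp in intron 1 of Itga1 held TSSs of Pelo and Gm10734.

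Itga2b differed from the other members with an NMI. The TSS of its main transcript lay 2181 bp from the nearest NMI. Its NMIs of 1149 bp (exons 27 to 29) and 734 bp (exons 3 to 5) each held the TSS of 1 internal non-coding transcript, and an NMI of 703 bp over exons 7 to 9 held no TSS. These NMIs had 4.53, 5.45 and 3.56 CpGs per 100 bp. Of the NMIs at main TSSs, those of Itgb8 (5.06) and Itga1 (5.24) were sparser than the NMI of 734 bp, and that of Itgb1 was the densest (10.9). The 5 integrins of this group without an NMI at a TSS were Itga4, Itga7, Itga9, Itga10 and Itga11, with nearest distances of 378865, 9708, 53154, 6020 and 55303 bp. An NMI of 185 bp with 2 CpGs lay in the last exon of Itga10.

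Sorted by ligand, the alpha chains that recognise the RGD motif (Itga2b, Itga5, Itga8 and Itgav) had an NMI in 4 of 4 genes, or 3 by the TSS of the main transcript (all protein-coding genes 47.5% and 44.1%). Those that bind laminin had one in 2 of 3, with Itga7, the muscle chain, lacking it. The collagen-binding chains had one in 1 of 4, and the alpha4 class (Itga4 and Itga9) in 0 of 2. With 2 to 4 genes in each class, the intervals of these shares overlap and each holds the share of all genes.

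The laminins with an NMI were 1 of each kind of chain. Lamc1, the common gamma chain, had the widest NMI of any member, 1955 bp (chr1:153331853-153333807). Lamb1, the common beta chain, had one of 1472 bp (chr12:31264891-31266362), and Lama5, the alpha chain widespread in adult basement membranes, one of 1437 bp (chr2:180224654-180226090). The NMI of Lamc1 reached 1021 bp upstream of the TSS and 933 bp into the gene, and Lamc1 was the 1 member among 13 in which it reached further upstream than downstream.

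The other 8 laminin genes had no NMI at a TSS, with nearest distances of 69 bp to 423720 bp. Lamb2, the beta chain of muscle and kidney basement membranes, stood closest to the boundary: an NMI of 866 bp with 33 CpGs ended 69 bp before its outermost TSS and held no TSS of any gene, and another of 1450 bp at the 3′ end of the gene was that of Usp19. Lama3 and Lamb3, chains found in the basement membranes of epithelia, lay 27830 and 33858 bp from the nearest NMI. Lama1 (57877 bp), Lama2 (423720 bp), Lama4 (27967 bp) and Lamc3 (48892 bp) had no NMI anywhere in the gene. The integrin-like Itgbl1 lay farthest of all members from an NMI, at 676256 bp.

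NMIs at main TSSs of the members were laid out mainly into the gene. In the 13 members the NMI extended 169 to 1021 bp upstream of the TSS (median 355 bp) and 372 to 1392 bp downstream (median 1128 bp), with the downstream part longer in 12 of 13 genes. Over the 9675 protein-coding genes with an NMI at the main TSS the medians were 421 and 724 bp, and the downstream part was longer in 75% of them. The median width was 1472 bp in the members and 1212 bp in all such genes. The ratio of observed to expected CpG within these NMIs ran from 0.565 in Itgb8 to 0.933 in Itgb1 (median 0.72, against 0.766 in all such genes).

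**Figure D2:**
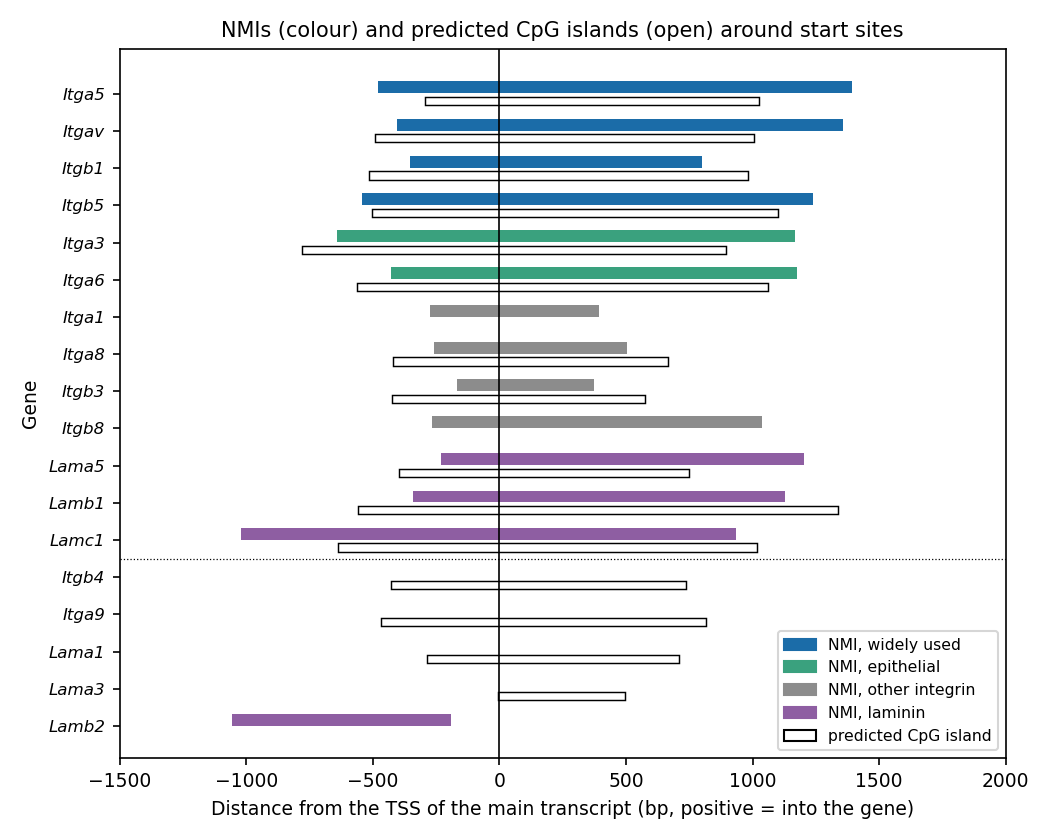
Extent of NMIs (coloured bars, by group) and of predicted CpG islands (open bars) around the TSS of the main transcript, set at 0 bp with the gene to the right. The 13 genes above the dotted line have their main TSS in an NMI, Itgb4, Itga9, Lama1 and Lama3 below it have a predicted island and no NMI, and the NMI of Lamb2 ends short of the start.

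Few TSSs far from the main TSS lay in an NMI. The members had 200 distinct TSSs, of which 40 lay in an NMI. Within 1000 bp of the main TSS this was 38 of 110, and farther away 2 of 90, both in Itga2b. Over all protein-coding genes the shares were 58% and 7.46%. In Itga5, for example, 2 of 4 TSSs lay in the NMI, in Itgav 6 of 8, in Itgb5 2 of 7, in Itga6 3 of 8 and in Lamc1 1 of 5. The TSSs of Itga1 and Itgb8 all lay in their NMI (6 of 6 and 3 of 3), since these starts lay within 254 bp and 32 bp of each other.

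CpG density was low at the starts of the 8 genes grouped as leukocyte integrins and varied widely among the other members. Within 500 bp of the main TSS the leukocyte genes held 0.5 CpGs per 100 bp (Itgb2l) to 2 (Itgal), with a median of 1.2. Itga4, which pairs with Itgb7 but was grouped with the other integrins, held 4.2, so the low range depends on that grouping. The epithelial and widely used chains held 2 (Itgb6) to 10.5 (Itgb5), with a median of 8.89, and the median of all protein-coding genes was 4.3. Only Itgb6 of the epithelial and widely used chains was as low as the highest leukocyte gene. Members with an NMI ran from 1.7 (Itga2b) and 4.2 (Itga1) to 10.5, and Lamb3 at 0.699 was sparser than all leukocyte integrins but Itgb2l. The medians of the ratio of observed to expected CpG were 0.192 and 0.838 for the 2 groups.

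By CpG density, the leukocyte integrins fell among genes that seldom had an NMI. All 8 lay in the 4 lowest of 10 equal classes of CpG density (up to 2.8 CpGs per 100 bp), in which 7.1% of 8775 protein-coding genes had an NMI. With so low a share, 0 of 8 can neither set them apart from other genes of these classes nor show that they are alike. The other members there were Itgb6, Itga10, Itga2b, Itgbl1, Lama2, Lama4, Lamb2 and Lamb3, and of the 16 in all only Itga2b had an NMI. In the 6 higher classes, in which 74.5% of 13163 genes had an NMI, 13 of 23 members did. Among those without were Itga2, Itga4, Itga7, Itga9, Itga11, Itgb4, Lama1, Lama3 and Lamc3. In the 4 highest classes, where the share of all genes was 81.6%, 10 of 14 members had an NMI, and the 4 without were Itga9, Itgb4, Lama1 and Lamc3.

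The densities rest on 1 TSS a gene. At Itgad, whose TSSs spread over 49498 bp, they ran from 0.899 to 3.7 CpGs per 100 bp, and its outermost TSS had the highest value of any TSS of a leukocyte integrin. At Lamb3 they ran from 0.699 to 2.7 over 112996 bp, and 94269 bp separated the start in RefSeq from that of the main transcript used here. No TSS of either gene lay in an NMI.

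**Figure D3:**
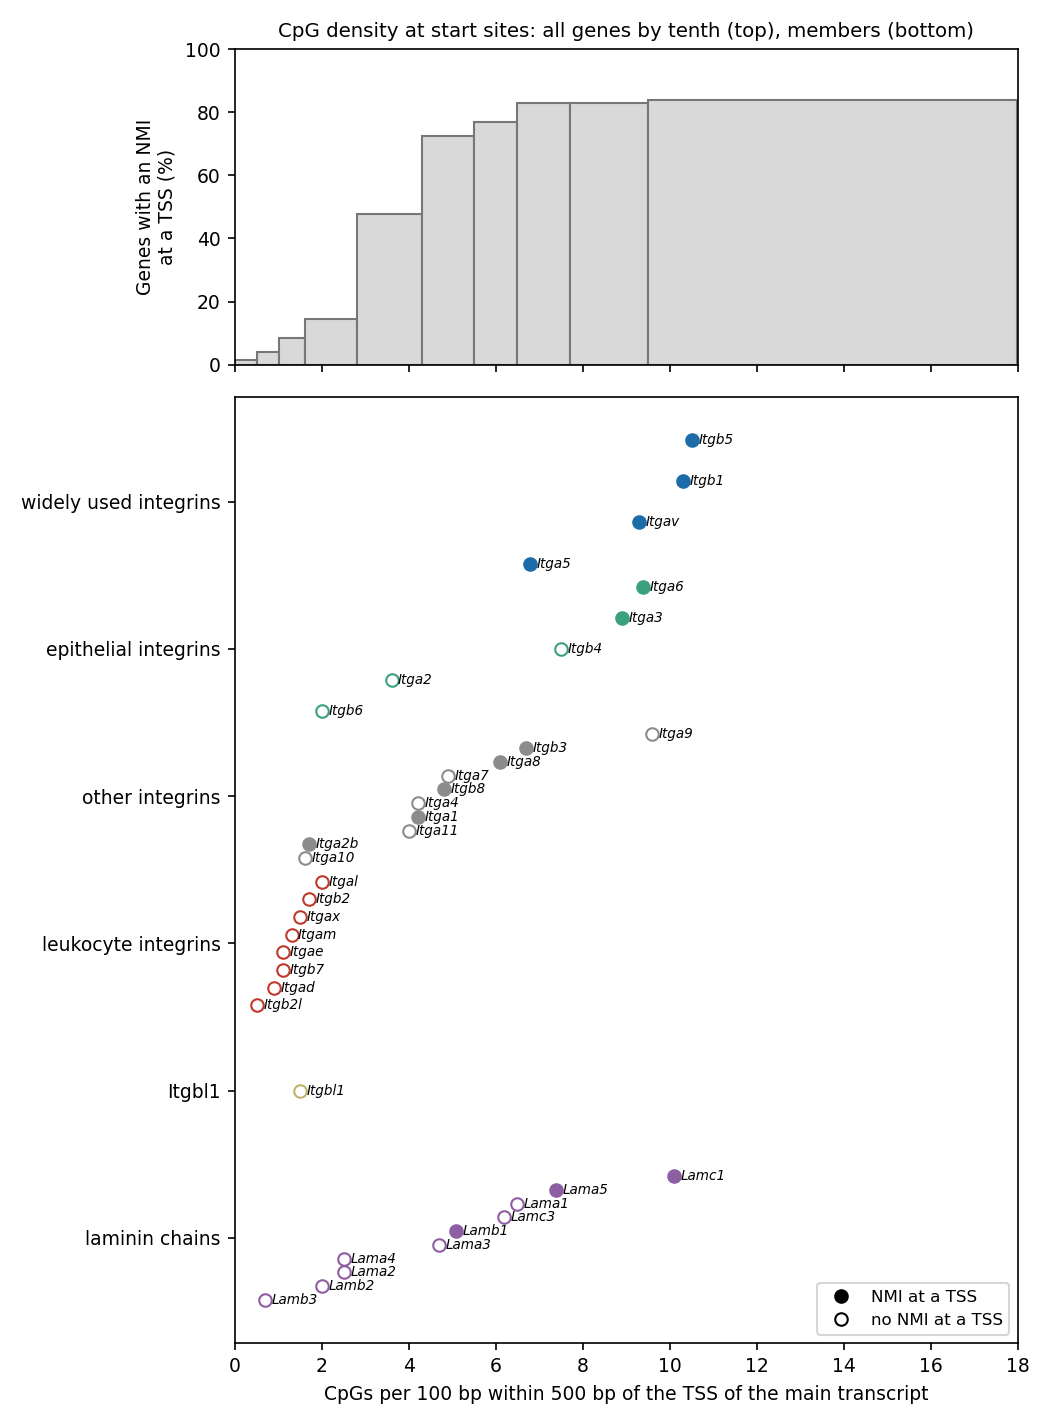
Top, share (%) of all protein-coding genes with an NMI at a TSS in 10 equal classes of CpG density (CpGs per 100 bp within 500 bp of the main TSS). Bottom, integrin and laminin genes, each at its own density, filled where a TSS lay in an NMI: the 8 leukocyte integrins sit between 0.5 and 2 with none filled, and Itga9 (9.59), Itgb4 (7.49), Lama1 (6.49) and Lamc3 (6.19) are open points at densities where most genes had an NMI.

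CpG islands predicted from sequence alone (at least 500 bp, GC content of 55% and a ratio of observed to expected CpG of 0.65) lay at a TSS of 16 members, or 41%, against 45% of all protein-coding genes. Of these 16 genes 12 also had an NMI, a share of 75% where that of all genes with an island was 80.5%. The other 23 members had no such island, and 2 of them, Itga1 and Itgb8, had an NMI (8.7%, against 20.6% of all genes without an island). No leukocyte integrin had a predicted island by these criteria, but 1 (Itgad) did under each of the other criteria tried. Under those, 60.9% of members with an island had an NMI, against 77.6% or 75.8% of all genes with one.

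The 4 members with a predicted island but no NMI were Itga9 (1283 bp, 111 CpGs, ratio 0.77), Itgb4 (1168 bp, 78 CpGs, 0.673), Lama1 (998 bp, 72 CpGs, 0.653) and Lama3 (502 bp, 39 CpGs, 0.651). Itga9 encodes an alpha chain of a receptor for tenascin and other ligands. Its island was close in width to that of Itga5, which measured 1320 bp with a ratio of 0.666 and overlapped an NMI. The islands of Lama1 and Lama3 lay at the very threshold of the criteria, as did that of Itgb3 (1002 bp, 0.651), which did have an NMI. Width and ratio of the island therefore overlapped between members with an NMI (500 to 1896 bp, 0.651 to 0.884) and without. The island of 500 bp, however, lay inside Itga2b, away from its main TSS. At main TSSs the narrowest island with an NMI was that of Itgb3, wider than those of Lama1 and Lama3 but narrower than those of Itga9 and Itgb4.

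Since integrins act as pairs, the NMIs were read by heterodimer over 24 pairs known in mouse. Over single protein-coding genes the share with an NMI was 47.5% (44.1% by main TSSs). As a share of single genes it is no background for the count of pairs with an NMI at both chains. Both chains had an NMI in 10 pairs (9 by main TSSs) and neither chain in 6. The latter were the beta2 pairs of Itgal, Itgam, Itgax and Itgad and the beta7 pairs of Itga4 and Itgae. Of the 12 partners of Itgb1, 6 had an NMI (Itga1, Itga3, Itga5, Itga6, Itga8 and Itgav), near the share of all protein-coding genes. That share is also the background of the 5 beta partners of Itgav, of which all except Itgb6 had an NMI. In the hemidesmosome pair only Itga6 had an NMI. Pairs share chains and are not independent of each other.

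**Figure D4:**
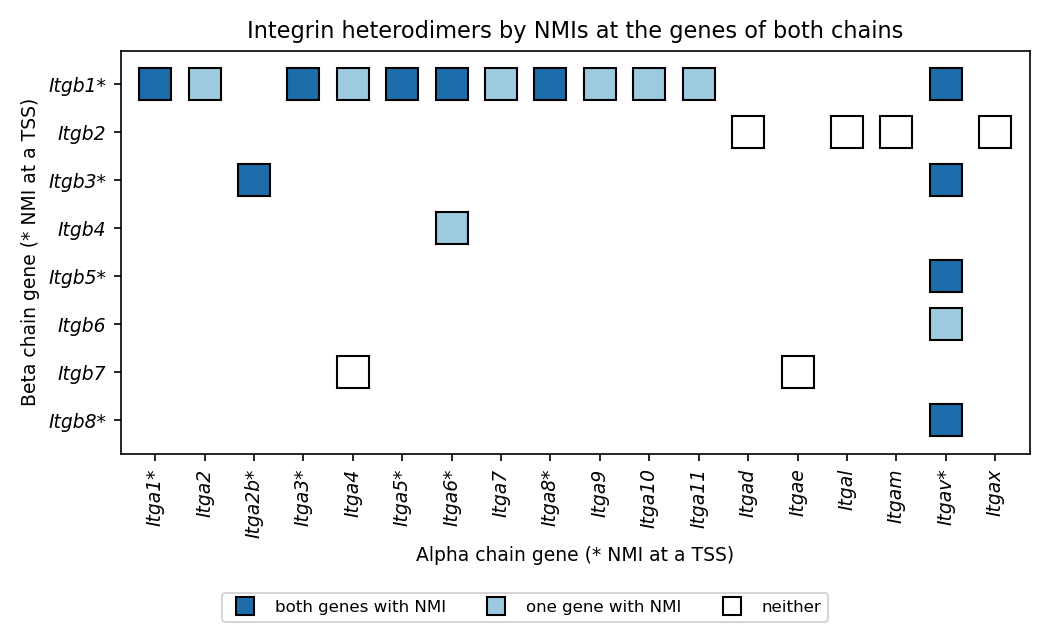
Integrin heterodimers as squares at the crossing of the alpha (x axis) and beta chain gene (y axis), dark where both genes had an NMI at a TSS, light where 1 did and white where neither did. The row of Itgb1 holds 6 dark squares of 12, the column of Itgav 4 of 5, and the rows of Itgb2 and Itgb7 hold white squares only.

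Of 12 laminin trimers, only laminin-511 (Lama5, Lamb1 and Lamc1) had an NMI at the genes of all its chains. This follows from the single genes: with 1 alpha, 1 beta and 1 gamma chain gene with an NMI, no more than 1 trimer could. Trimers share chains and are not independent of each other. If an NMI within 250 bp of a TSS is counted, Lamb2 gains one and laminin-521 (Lama5, Lamb2 and Lamc1) joins laminin-511. The trimers of Lama1, Lama2, Lama3 or Lama4 with Lamb1 and Lamc1 lacked an NMI at the alpha chain gene only.

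Genes that work with the integrins were read in the same way. The share of all protein-coding genes (47.5%) is the background of each of these lists. Of 33 activators and adaptors of cell adhesion 26 had an NMI (78.8%, 61.1% to 91%), and 22 had one at the main TSS (all genes 44.1%). This list was rich in CpG: 24 of the 33 had a predicted island (all genes 45%). Its median density was 5.99 CpGs per 100 bp, against 4.3 in all genes. What part CpG density has in this share was not tested. The widest NMIs were those of Actn1 (2417 bp, an actin cross-linker), Tns3 (2350 bp, a tensin), Zyx (2244 bp, a focal adhesion protein) and Sharpin (2185 bp, an inhibitor of integrin activation). The 7 without were Fermt1 and Fermt3, the epithelial and blood cell kindlins, Parvg, the blood cell parvin, Tgfb1i1, Tln2, Tns1 and Tns4. Fermt2, the kindlin of most other tissues, had an NMI of 1952 bp. Basement membrane proteins and laminin receptors had one in 8 of 14 genes (57.1%, 28.9% to 82.3%), near the background, with that of Utrn (2171 bp) the widest and Nid1, Nid2, Bcam, Col17a1, Dmd and Ntn4 without. Ligands of integrins had one in 4 of 15 (26.7%, 7.79% to 55.1%), an interval that holds the background. These were Tgfb1 (3083 bp), Thbs1 (1758 bp), Fn1 (1540 bp) and Tnc (679 bp). The other 11 had none: Cdh1, Fbn1, Icam1, Icam2, Icam4, Madcam1, Npnt, Postn, Spp1, Vcam1 and Vtn. Of 9 genes that act with beta2 and beta7 integrins in leukocytes, 2 had an NMI (22.2%, 2.81% to 60%), and this interval also holds the background. They were Runx3 (1796 bp) and Apbb1ip (550 bp), neither with its NMI at the main TSS.

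Marker genes were read as a check of the cells, beside the 47.5% of all protein-coding genes with an NMI (44.1% by main TSSs). None of 10 mammary epithelial markers had an NMI (0%, up to 30.8%), including Cdh1, Epcam, Krt8 and Krt18, although 6 of the 10 had a predicted CpG island. All 7 mesenchymal markers, among them Vim, Zeb1 and Pdgfra, had an NMI of 1386 to 3054 bp, though at the main TSS in 4 of the 7. None of 10 leukocyte markers had an NMI. Their median of 1.75 CpGs per 100 bp lay in the range where 7.1% of all protein-coding genes had one. Their 0 of 10 therefore cannot check the cells. NMIs are no measure of expression, but at the epithelial and mesenchymal markers they did not mark the cell type given by the label. What part this has in the values of the epithelial integrins and laminins was not tested.

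**Figure D5:**
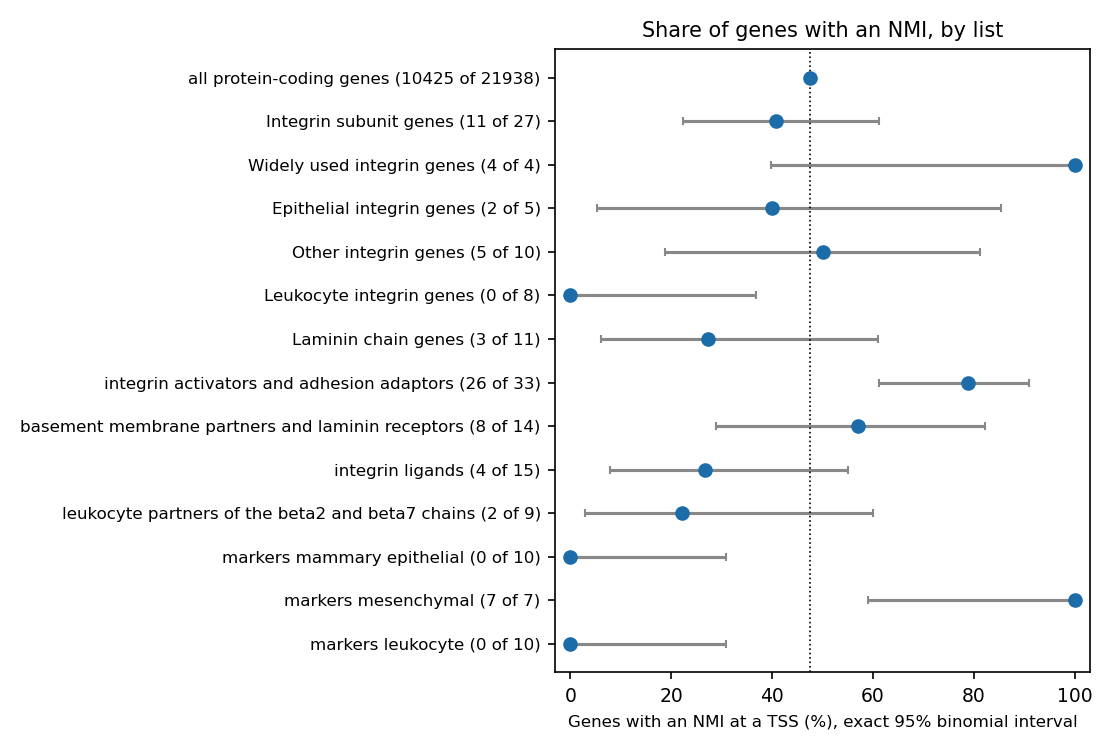
Share (%) of genes with an NMI at a TSS in each group and list, with exact 95% binomial intervals and the share of all protein-coding genes (47.5%) as a dotted line. The interval of the leukocyte integrins ends at 36.9%, that of the adaptors begins at 61.1%, and those of the laminins and of the other integrin groups cross the line.

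Short motifs were counted on both strands of the 300-base RefSeq promoters (250 before and 50 after the start), and no motif is contained in another. GGGCGG, the GC box bound by Sp1, occurred in 48.5% of 16522 promoters. It occurred in 6 of 7 promoters of epithelial and widely used integrins and in 1 of 4 of leukocyte integrins, that of Itgam. It was as rare among the other integrins, at 1 of 8 promoters (Itga4), and was found in 3 of 5 laminin promoters. Over all genes it occurred in 70.8% of promoters of genes with an NMI and in 26.3% of those without. The GC box itself holds a CpG, and the medians of these 2 sets were 23 and 4 CpGs per promoter. They were 20 in the epithelial and widely used group, 5 in the leukocyte group, 11 in the other integrins and 4 in the laminins. What part CpG density has in these motif shares was not tested. GAGGAA, a purine-rich core known from PU.1 sites, occurred in 27.2% of all promoters and in 3 of the 4 leukocyte promoters (Itgam, Itgb2l and Itgb7), but also in 3 of the 7 others and in all 5 laminin promoters in the table. TATAAA was found in none of the integrin subunit and laminin promoters in the table, against 12.9% of all promoters. The entries of Itga9 and Lamb3 describe starts 105002 and 94269 bp from the main TSS, and a match to a motif does not show a bound site.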

How the data were processed

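The positions deposited by the authors (chromosome, start and end of each NMI) came from 1 BioCAP library. For these, the authors used Bowtie2 for alignment to mm10, SAMtools for the removal of duplicate reads and MACS (MACS2 in the submitters' processing notes) for peak calling. Not given in the sources used here are the versions, and whether the input served as control. Keeping uniquely placed reads can lose signal at near-identical gene copies, and a calling threshold leaves weakly captured islands out. The list gives no depth, so no precision follows from it.

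Starts were converted to count from 1. A gene had an NMI when the 5′ end of any GENCODE M21 transcript lay in an NMI (overlap of at least 1 bp). The main transcript was the best by APPRIS level, then the basic set, then length. CpG content came from the reference (GRCm38.p6) in 1001 bp around its TSS. A predicted island was a union of overlapping 500 bp windows that passed the criteria, and the union had to pass as well, a requirement added after seeing the data. Intervals were computed with scipy 1.17.1. With 1 library there was no test and no p-value across genes. The overlap and island code was tested on simulated data.

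Members, groups and lists were chosen with earlier results of these data known, and the heterodimers and trimers were listed after the values of their genes had been seen. Members are named (some results that touch a member or a neighbouring gene are not reported here), with, from each list, up to 4 genes with the widest NMI and up to 4 without in alphabetical order (all where 5 or fewer), or further genes chosen after their values were seen. The promoters shown were to be the 4 sparsest leukocyte integrins and the 4 widest NMIs, taken here among entries of the table. Of the ligands, 2 of 17 listed symbols had no match. Alternatives were other distances to the TSS, other sets of TSSs, the removal of narrow NMIs, other group memberships and other island criteria. The ATAC and 4-thiouridine libraries were not used here.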

Additional observations from a re-analysis of the deposited data

How the results depend on the processing

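Counts of genes with an NMI at a TSS, and of members with a predicted island, were recomputed under 47 alternatives. In 46 they stayed within 1.5 times the reported value or at 0. The exception was the leukocyte group with Itga4 and Itga2b added, which gave 1 of 10, from Itga2b. The total over all 39 members ranged from 12 (outermost TSS) to 15 (NMI within 250 bp or 1000 bp of a TSS), and the 8 leukocyte integrins stayed at 0 under each other definition of a TSS. In 35 of 39 members no alternative changed the call. Itga2b had no NMI by the outermost TSS, the main transcript or protein-coding transcripts, Itga6 had none by the outermost TSS, Itgb3 had none without NMIs at or under the lower quartile of width (572.5 bp), and Lamb2 had one within 250 bp and 1000 bp. Predicted islands rose from 16 to 23 of 39 members when the union of windows was not itself tested, an alternative chosen after seeing the data, and to 23 under looser criteria (200 bp, 50% and 0.6). In either case 14 of the 23 had an NMI (60.9%, against 77.6% and 75.8% of all genes with such an island) and 9 had none. Itga9, Itgb4 and Lama1 were among these 9 both times, as were Itga4, Itga7, Itgad and Lamc3, while Lama3 was among them only in the first case and Itga11 only in the second. No paired analysis was possible because a single BioCAP library gave the list. The absence of depth and replicates limits every value to this library.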
